A study of Mus musculus with 15 samples.

Results

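TGFβ and activin, ligands that signal through SMAD2 and SMAD3, were examined by their genes in mouse endometrial epithelial organoids. *Inha*, a subunit of inhibin, which opposes activin, was included, as were *Gdf11* and *Gdf15*. The 8 genes were *Tgfb1*, *Tgfb2*, *Tgfb3*, *Inha*, *Inhba*, *Inhbb*, *Gdf11* and *Gdf15*. They were chosen by family and by having a row in the table of normalized counts, in which all 8 were found among 16729 genes.

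TGFβ and activin dimers bind a type 2 receptor, which activates a type 1 receptor kinase (ALK5 for TGFβ, ALK4 or ALK7 for activin) that phosphorylates SMAD2 and SMAD3. These join SMAD4 in the nucleus. TGFβ is secreted in a latent form and is released by integrins or proteases, whereas activin is held back outside the cell by follistatin and is opposed by inhibin. In the endometrium these ligands are known for roles in epithelial growth control, decidualization and tissue repair.

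Organoids were grown in Matrigel from uterine epithelium that had been separated from the underlying tissue. All mice carried Smad2flox/flox; Smad3flox/flox, and the *Smad2/3* cKO mice carried Ltfcre/+ in addition, which expresses Cre in the uterine epithelium from the lactoferrin gene. Per the methods, estradiol was given at weaning to induce this Cre. A83-01, which blocks the kinases ALK4, ALK5 and ALK7, or its DMSO vehicle was added to the medium. The samples were 3 of control + vehicle, 4 of control + A83-01, 4 of *Smad2/3* cKO with vehicle (called *Smad2/3* cKO) and 4 of *Smad2/3* cKO + A83-01, 15 in all. The labels give no age.

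The sum of normalized counts lay between 20241771 and 24423127 in each sample. The targeted genes were still counted in every sample. *Smad2* was at 1171 ± 149 in control + vehicle (SD, n = 3) against 875 ± 43.8 (SD, n = 4) with the deletion, and *Smad3* at 1624 ± 107 against 1576 ± 334. The values are per gene, so the deleted exons cannot be told apart from the rest and the deletion is not checked by them. The 6 epithelial markers (*Epcam*, *Cdh1* and 4 keratins) summed to at least 120018 in every sample. They were not level between the groups, with sums of 240842 to 309429 in control + vehicle and of 153452 to 265256 with A83-01. The *Smad2/3* cKO sums were 121653 to 228701, and with A83-01 added 120018 to 185979. Neither *Smad2/3* cKO group overlapped control + vehicle. Keratins made up most of each sum. *Epcam* averaged 23268 in control + vehicle, against 25458, 24265 and 24535.5 in the other groups in that order. *Cdh1* averaged 15679, against 11356, 11817 and 11541.5. None of the 6 passed in either comparison with control + vehicle, where the lowest adjusted p values were those of *Krt19* (log2 −1.85, adjusted p = 0.0118) and *Krt8* (−1.50, 0.0124) in *Smad2/3* cKO, and 0.0242 and 0.029 without the library named next. The part of this in the ligand differences was not tested. One library stood apart: *Smad2/3* cKO replicate 2 held 3372 normalized counts of *Lyz2*, 351 of *Adgre1* and 128 of *Tyrobp*, genes of macrophages, whereas the other 14 samples held at most 86.9, 9.01 and 0. Fitted differences of the ligands, and counts of genes that passed or did not overlap, are given with and without it. Levels per length and likeness between genes are given only with it.

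The upstream regions of *Tgfb2* and *Inhba* are shown because these genes had the largest differences from control + vehicle among the 8, upward for *Tgfb2* and downward for *Inhba*. Each line gives the 250 bases before the RefSeq start site (GRCm38.p6), on the gene's own strand. Capitals mark 4 motifs, searched on both strands. They are CAGAC, a core of SMAD binding elements, then the TATA box TATAAA, then the E-box CACGTG, and the AP-1 site TGANTCA, which occurs in neither line. GGCGC and the box CCAAT were searched as well and are not in capitals. The *Tgfb2* window is chr1:186705990-186706239 on the minus strand, and the *Inhba* window is chr13:16011601-16011850 on the plus strand.
Tgfb2: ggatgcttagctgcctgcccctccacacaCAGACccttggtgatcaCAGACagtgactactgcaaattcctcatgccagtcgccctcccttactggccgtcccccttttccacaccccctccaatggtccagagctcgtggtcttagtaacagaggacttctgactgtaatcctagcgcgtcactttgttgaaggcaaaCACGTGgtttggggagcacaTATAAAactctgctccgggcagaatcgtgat
Inhba: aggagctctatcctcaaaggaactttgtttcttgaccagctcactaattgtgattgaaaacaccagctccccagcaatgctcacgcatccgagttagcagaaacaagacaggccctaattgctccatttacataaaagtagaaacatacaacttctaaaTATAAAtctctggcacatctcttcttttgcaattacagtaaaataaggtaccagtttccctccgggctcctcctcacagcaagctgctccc

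The *Tgfb2* window held CAGAC at −221 to −217 and at −204 to −200 from the start site, CACGTG at −51 to −46 and TATAAA at −31 to −26. A CCAAT box lay at −130 to −126, and no motif overlapped another. The *Inhba* window held TATAAA alone, at −91 to −86. Over the 32851 windows of the same length in the RefSeq table, 42.2% held CAGAC, 12.4% the TATA box, 6.02% the E-box, 6.75% the AP-1 site, 32.0% GGCGC and 33.8% the CCAAT box. Of the 8 genes, 7 were matched in that table. For *Gdf15*, which has 2 listed start sites, CAGAC was found once upstream of each (−202 to −198 and −116 to −112) and CACGTG upstream of the second (−83 to −78). *Inha* held CAGAC at −186 to −182. These are matches of letters and no measure of binding.

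**Figure D1:**
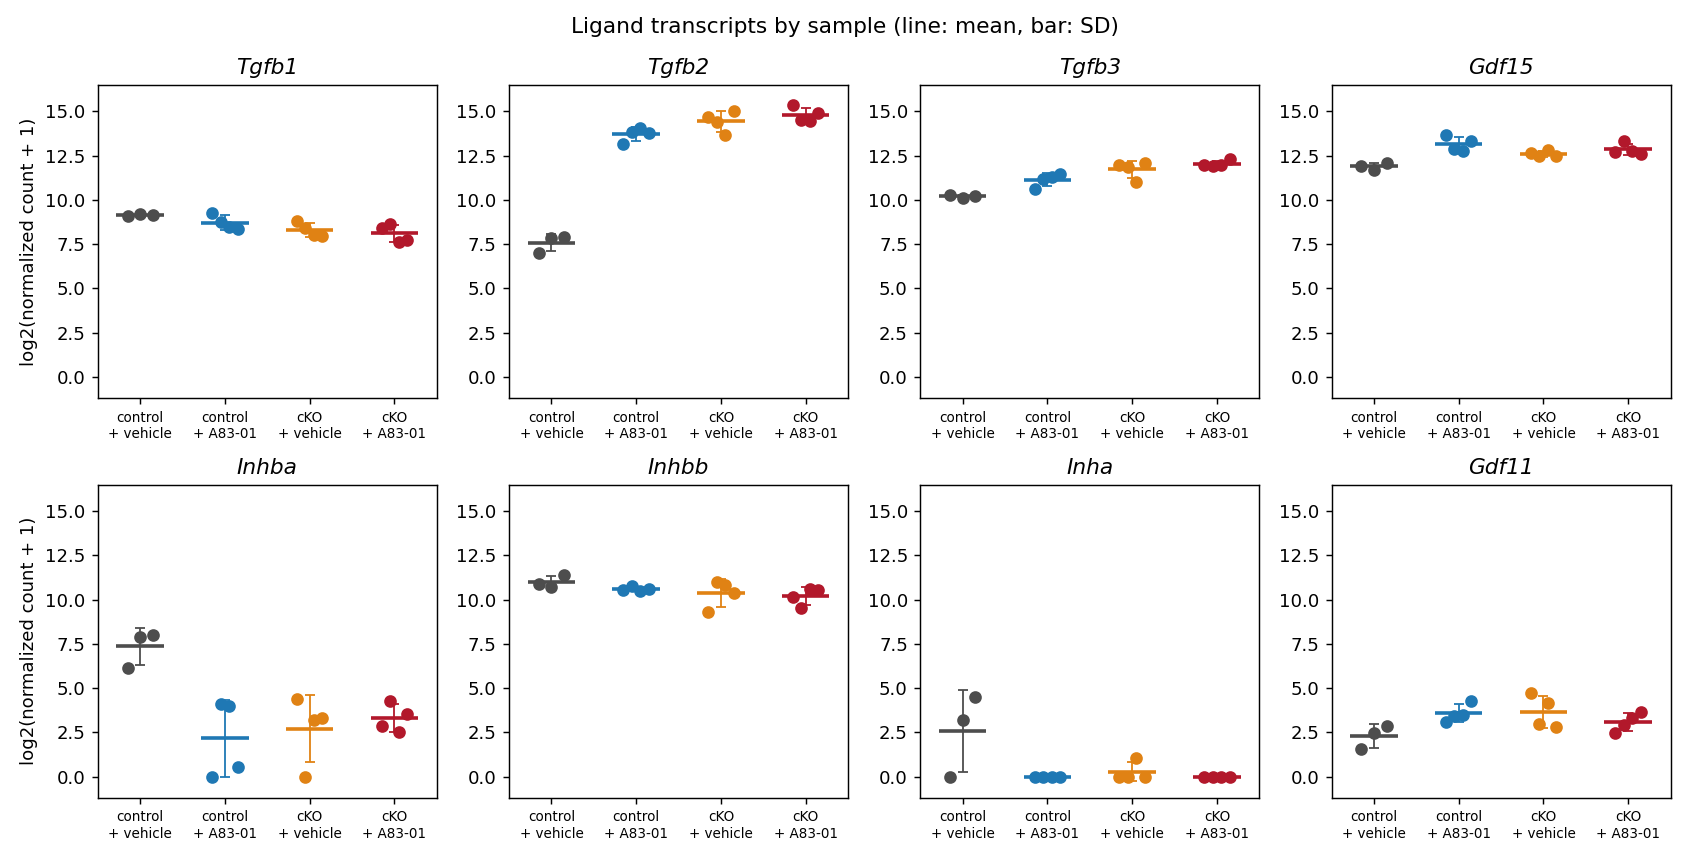
Each panel plots 1 gene, with log2(normalized count + 1) on the vertical axis and the 4 groups on the horizontal axis (cKO, *Smad2/3* cKO). Points are samples, lines are group means and bars are SD. The 3 control + vehicle samples of *Tgfb2* lie far below the 12 others, and those of *Inhba* lie above the 12 others.

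*Tgfb2*, a TGFβ isoform that needs the co-receptor betaglycan to bind its type 2 receptor well, was low in control + vehicle and high in the other 3 groups. In bulk samples such as these, more or fewer cells of a type cannot be told apart from more or less RNA per cell. The gene spans chr1:186622792-186705989 on the minus strand (GRCm38). Normalized counts were 129, 229 and 235 in the control + vehicle samples. They were 9135, 14802, 17364 and 13948 in control + A83-01. They were 26497, 21296, 12858.5 and 33790.4 in *Smad2/3* cKO, and 41707, 23291, 22364 and 30519.9 in *Smad2/3* cKO + A83-01. The lowest of the 12 samples with inhibitor or deletion was thus far above the highest control + vehicle sample.

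With A83-01 in control organoids, *Tgfb2* rose 70.2-fold (log2 fold change 6.13, SE 0.28, 95% interval 5.51 to 6.76, limma adjusted p = 2.55e-05). Fold changes are on the scale of log2(normalized count + 1), and a gene passed at an adjusted p below 0.01 with a fold change above 1.4 or below its reciprocal. *Tgfb2* was the only one of the 6 ligands tested here that passed, where 2.27% of the 13009 genes tested passed and 1.19% passed as higher. Samples of the 2 control groups that carry the same number in their labels gave A83-01 to vehicle ratios of 70.9, 64.7 and 73.9, while the vehicle levels ran from 129 to 235. In *Smad2/3* cKO against control + vehicle the rise was 116-fold (log2 fold change 6.86, SE 0.33, adjusted p = 2.34e-05), and without *Smad2/3* cKO replicate 2 it was 6.88 on the log2 scale (adjusted p = 0.000138). Of the 6 ligands tested, 2 passed as higher, *Tgfb2* and *Tgfb3*, where 7.38% of 13149 genes passed and 4.08% as higher. Without *Smad2/3* cKO replicate 2 the ligands that passed were *Tgfb2* and *Inhba*, again 2, where 4.97% of 13120 genes passed. Both comparisons share the 3 control + vehicle samples.

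A83-01 added to *Smad2/3* cKO organoids gave a *Tgfb2* difference of 0.36 on the log2 scale (95% interval −0.31 to 1.03, adjusted p = 0.994), and of 0.34 without *Smad2/3* cKO replicate 2. No ligand and no other gene passed in that comparison, in which 0% of 12998 genes passed and 554 genes, none of them a ligand, had an unadjusted p below 0.05 in limma. The difference of the 2 A83-01 effects on *Tgfb2* between genotypes was −5.77 (SE 0.44, adjusted p = 9.75e-06), and −5.80 without *Smad2/3* cKO replicate 2 (adjusted p = 3.64e-05), where 0.551% of 13066 genes passed and 0.437% without that library, and *Tgfb2* was the only one of 6 ligands to pass.

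*Smad2/3* cKO exceeded control + A83-01 in *Tgfb2* by 0.73 on the log2 scale (SE 0.30, adjusted p = 0.722), by 0.75 without *Smad2/3* cKO replicate 2 (adjusted p = 0.938), and the groups overlapped. In this direct comparison of deletion with inhibitor 0% of 12980 genes passed in limma, 826 genes had an unadjusted p below 0.05, and 3 of these were *Tgfb2*, *Tgfb3* and *Gdf15*. *Smad2/3* cKO + A83-01 was 2.12-fold above control + A83-01, with groups that did not overlap, but the difference missed the threshold (log2 1.08, 95% interval 0.52 to 1.65, adjusted p = 0.161). In that comparison 0.0232% of 12915 genes passed and none of 5 ligands.

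*Tgfb3*, an isoform best known for its role in closing the palate, had smaller differences. The gene spans chr12:86056745-86079041 on the minus strand. Its normalized counts were 1241, 1123 and 1178.5 in control + vehicle, 1589, 2331, 2547 and 2805.5 in control + A83-01, 4051, 3666, 2050.0 and 4357 in *Smad2/3* cKO, and 4096, 3851, 4073 and 4995 in *Smad2/3* cKO + A83-01. All 12 samples with inhibitor or deletion lay above the 3 control + vehicle samples. The rise passed in *Smad2/3* cKO (2.88-fold, log2 1.52, SE 0.24, adjusted p = 0.00388), while with A83-01 in controls the difference was 0.94 on the log2 scale (SE 0.21, adjusted p = 0.0283). The call in *Smad2/3* cKO was lost on leaving out *Smad2/3* cKO replicate 1 (adjusted p = 0.0112), 2 (0.0103) or 4 (0.0115), or control + vehicle replicate 1 (0.0182), 2 (0.0201) or 3 (0.0116). Without control + A83-01 replicate 1, the call with A83-01 was gained (log2 1.11, adjusted p = 0.00542). *Smad2/3* cKO + A83-01 and control + A83-01 did not overlap either (log2 0.90, SE 0.19, adjusted p = 0.113).

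*Tgfb1*, the isoform most widely expressed across tissues, had lower means in the 3 other groups than in control + vehicle, and passed in no comparison. The gene spans chr7:25687002-25705077 on the plus strand. Its normalized counts were 544.5, 579.7 and 577 in control + vehicle, 618, 426, 357 and 328.5 in control + A83-01, 454, 345, 259 and 247 in *Smad2/3* cKO, and 338, 397.5, 197 and 214 in *Smad2/3* cKO + A83-01. The 2 genotypes with vehicle did not overlap, but the difference missed the threshold (log2 −0.84, SE 0.23, adjusted p = 0.0362, and −0.88 with 0.0552 without *Smad2/3* cKO replicate 2). With A83-01 in controls it was −0.43 (SE 0.24, adjusted p = 0.348).

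**Figure D2:**
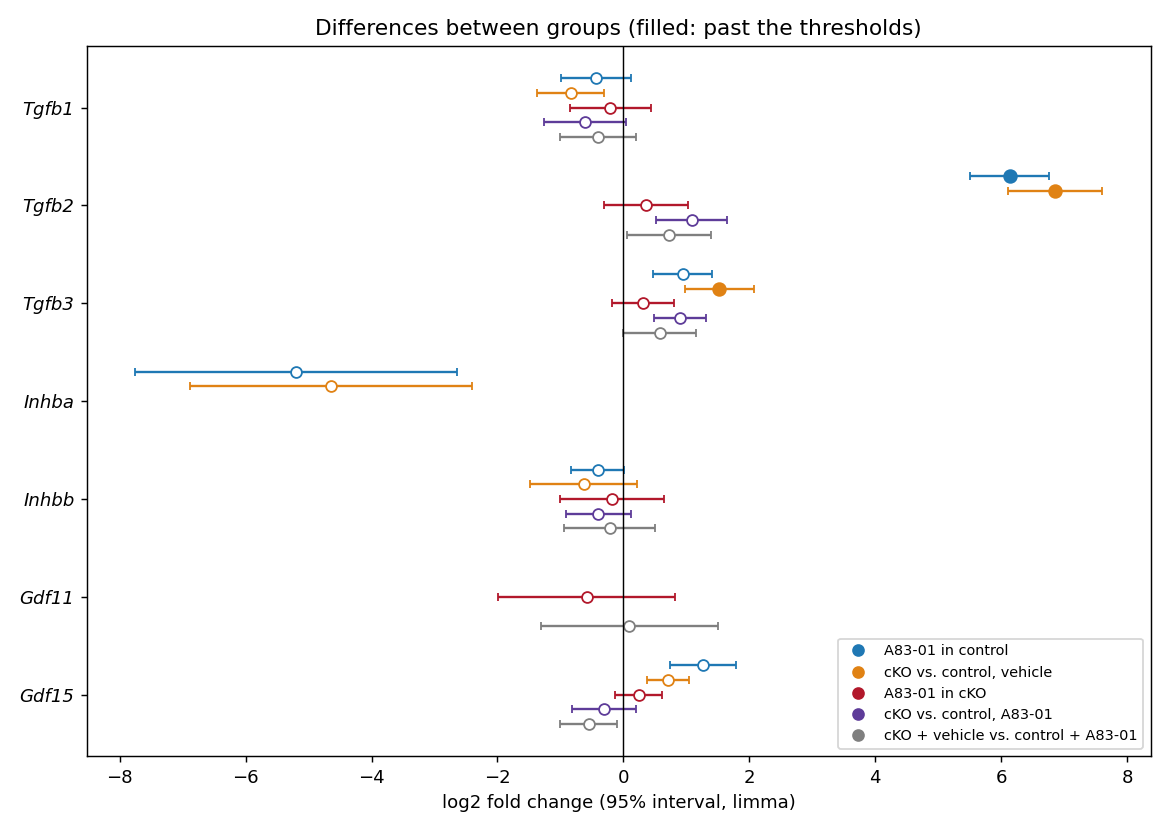
Points give the log2 fold change (horizontal axis) of each ligand tested in each of 5 comparisons of groups, with its 95% interval from limma. Filled points passed the thresholds. *Tgfb2* lies at 6.13 and 6.86 against control + vehicle and at 0.36 to 1.08 in the comparisons without control + vehicle, and *Inhba* lies at −5.20 and −4.64 with wide intervals. *Inha*, and other genes in comparisons where their mean was below 10, were not tested.

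*Inhba* encodes the βA subunit of activin A, and its gene spans chr13:16011851-16031621 on the plus strand. It was at 70.3, 234 and 259.7 normalized counts in control + vehicle. In control + A83-01 it was at 0, 15.9, 15.1 and 0.452, in *Smad2/3* cKO at 19.5, 0, 8.11 and 8.89, and in *Smad2/3* cKO + A83-01 at 6.34, 18.4, 4.66 and 10.6. The lowest control + vehicle sample was above the highest of the 12 other samples, though all 12 are near the lowest levels measured. The fitted differences from control + vehicle were −5.20 on the log2 scale with A83-01 (SE 1.13, adjusted p = 0.0279) and −4.64 in *Smad2/3* cKO (SE 0.99, adjusted p = 0.0129), both short of the threshold of 0.01. With the replicate number as a block, which pairs the control samples, the A83-01 difference was −4.66 and passed (adjusted p = 0.0077), so that 2 ligands passed there instead of 1. Of all genes tested 3.07% passed with the block. The size depends on the pseudocount, with −6.41 at 0.1 and −3.43 at 10 for A83-01. It passed at 10 in both comparisons (adjusted p = 0.00712 and 0.00336) and in a fit of all 4 groups (0.00777 and 0.00996), and in *Smad2/3* cKO also without replicate 2 (−3.74, adjusted p = 0.00765).

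*Inha*, the α subunit that makes inhibin when joined to a β subunit, stood at 0, 8.34 and 21.8 in control + vehicle. It was 0 in each sample with A83-01 of either genotype, and *Smad2/3* cKO samples held 0, 0, 1.08 and 0. Its mean was below the minimum of 10 for a test in every comparison. *Inhbb*, the βB subunit, was the most abundant of the 3 subunits. Its normalized counts were 1908, 1688 and 2709 in control + vehicle, 1499.7, 1738, 1446.5 and 1538.5 in control + A83-01, 625, 2060.4, 1815 and 1347 in *Smad2/3* cKO, and 1131, 725, 1568 and 1477.5 in *Smad2/3* cKO + A83-01. The groups overlapped except in that the lowest control + vehicle sample lay above all *Smad2/3* cKO + A83-01 samples. It passed in no comparison, with log2 differences of −0.41 (95% interval −0.83 to 0.02, adjusted p = 0.246) with A83-01 and −0.63 (95% interval −1.48 to 0.22, adjusted p = 0.278) in *Smad2/3* cKO, or −0.84 without replicate 2 (adjusted p = 0.164).

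Markers of other cells were summed in the same way. The 8 stromal genes, *Vim* and *Col1a1* among them, had summed levels of 36.97 to 203 with vehicle in controls. With A83-01 the control samples held 4.79 to 57.98, the *Smad2/3* cKO samples held 8.63 to 43.9, and with both the range was 6.495 to 136. Each of these ranges overlapped that of control + vehicle. The 3 smooth muscle genes measured of 4 had sums of 55.1 to 192.5 in control + vehicle, against 13.1 to 38.7, then 5.75 to 23.1, then 10.8 to 43.5 in the other groups in the same order. In control + vehicle *Acta2* averaged 110, *Cnn1* 8.03 and *Des* 2.10. *Acta2* fell in *Smad2/3* cKO (log2 −3.12, adjusted p = 0.00841, and −3.43 with 0.00894 without replicate 2). *Lum* was at 0 in all control + A83-01 and *Smad2/3* cKO samples, *Col1a1* in control + A83-01, *Dcn* in *Smad2/3* cKO and *Vim* in *Smad2/3* cKO + A83-01. Not all means were lower than in control + vehicle. *Pdgfra* averaged 21.7 in control + A83-01 against 15.5, and *Vim* 9.34 in *Smad2/3* cKO against 7.94. In *Smad2/3* cKO + A83-01 *Col3a1* averaged 23.1 against 15.96 and *Dcn* 14.6 against 12.6. *Des* averaged 2.31 in control + A83-01 and 3.69 in *Smad2/3* cKO + A83-01 against 2.10. All of these were with overlapping groups. Endothelial markers, 2 measured of 4, summed to at most 27.6. The part of these cells in the ligand differences was not tested.

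Leukocyte markers did not differ in 1 direction. The 6 measured of 7 had sums of 1315 to 2938 with vehicle in controls and of 3407 to 8763 with A83-01. The *Smad2/3* cKO sums were 2117 to 8239, and with A83-01 added 4032 to 7975. Most of each sum was *Cd68*, a lysosomal gene that other cells express as well, except in *Smad2/3* cKO replicate 2, which held more *Lyz2*. *Ptprc*, which encodes the leukocyte antigen CD45, rose in *Smad2/3* cKO (log2 3.33, adjusted p = 0.00228, and 3.15 with 0.00698 without replicate 2), with 12.5 to 38.6 normalized counts in control + vehicle against 123 to 309. In control + A83-01 it was at 68.5 to 236 and missed the threshold (log2 2.82, limma adjusted p = 0.019). In *Smad2/3* cKO + A83-01 it was at 119 to 513.5. Neither group with A83-01 overlapped control + vehicle in *Ptprc*. *Lyz2* was lower with A83-01, at 5.24 to 15.2 in control + A83-01 and 0 to 8.73 in *Smad2/3* cKO + A83-01 against 41.2 to 70.8 in control + vehicle (log2 −2.72, adjusted p = 0.0223 in controls, past no threshold). *Csf1r* overlapped control + vehicle in all groups. *Adgre1* was at most 9.01 outside *Smad2/3* cKO replicate 2, and *Tyrobp* was at 0 in the 11 samples of the other groups. *Tgfb2* in replicate 2, at 21296, lay within the range of the 3 *Smad2/3* cKO samples that held no *Tyrobp*. The part of leukocytes in the *Tgfb2*, *Tgfb3* and *Gdf15* differences was not tested.

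*Gdf15* encodes a distant member of the family that acts through the receptor GFRAL in the hindbrain and is known as a stress-responsive gene. The gene spans chr8:70629393-70632456 on the minus strand. Its normalized counts were 3838, 3293 and 4371 in control + vehicle, 12944, 7629, 6913.5 and 10273 in control + A83-01, 6429.6, 5721, 7252 and 5682 in *Smad2/3* cKO, and 6775, 10197, 7021 and 6134 in *Smad2/3* cKO + A83-01. All 12 samples with inhibitor or deletion lay above the 3 control + vehicle samples. Both differences from control + vehicle missed the threshold narrowly, at 2.40-fold with A83-01 (log2 1.26, SE 0.23, adjusted p = 0.0145) and 1.64-fold in *Smad2/3* cKO (log2 0.71, SE 0.15, adjusted p = 0.0109), or 0.75 on the log2 scale without replicate 2 (adjusted p = 0.0176). The A83-01 difference passed after quantile normalization (log2 1.16, adjusted p = 0.00926) and in a fit of all 4 groups (adjusted p = 0.00153). Same-numbered control samples gave A83-01 to vehicle ratios of 3.37, 2.32 and 1.58. The effect of A83-01 was lower by 1.02 on the log2 scale in *Smad2/3* cKO than in control organoids (95% interval −1.65 to −0.40), but the adjusted p of this difference was 0.108. Without *Smad2/3* cKO replicate 2 it was −1.06 (adjusted p = 0.136).

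*Gdf11*, a ligand close to myostatin that patterns the embryonic axis, was near the lowest levels measured. Its normalized counts were 1.92, 4.43 and 6.2 in control + vehicle, 7.51, 9.67, 10.2 and 18.6 in control + A83-01, 24.9, 6.75, 17.1 and 6.1 in *Smad2/3* cKO and 4.45, 6.46, 9.05 and 11.5 in *Smad2/3* cKO + A83-01. The 2 control groups did not overlap, but the gene was below the minimum for a test in that comparison.

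Counted over all 8 ligands, 5 did not overlap between control + A83-01 and control + vehicle (*Tgfb2*, *Tgfb3*, *Inhba*, *Gdf11* and *Gdf15*), and 4 of these were among the 6 tested. Of all genes tested 21.7% did not overlap there. In *Smad2/3* cKO against control + vehicle 5 did not overlap (*Tgfb1*, *Tgfb2*, *Tgfb3*, *Inhba* and *Gdf15*), where 30.8% of all genes tested did not. Without *Smad2/3* cKO replicate 2 the same 5 did not overlap, against 36.8% of all genes. Between *Smad2/3* cKO + A83-01 and control + A83-01 they were *Tgfb2* and *Tgfb3*, against 6.12% of all genes tested. No ligand separated *Smad2/3* cKO + A83-01 from *Smad2/3* cKO or *Smad2/3* cKO from control + A83-01, where 2.9% and 3.45% of all genes did. Without that library again none did, against 5.37% and 4.89%. The ligands were chosen with earlier results of these data known, so these shares are a description.

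Levels can be compared between genes only per length, and normalized counts were therefore divided by the exon length of each gene in kb (GENCODE annotation of GRCm38). In control + vehicle the order was *Gdf15* (2070 ± 291 per kb, SD, n = 3), *Inhbb* (494 ± 126), *Tgfb3* (349 ± 17.4), *Tgfb1* (113 ± 3.89), *Tgfb2* (34.1 ± 10.3), *Inhba* (29.4 ± 16.1), *Inha* (6.81 ± 7.45) and *Gdf11* (1.03 ± 0.53). The last 4 each overlapped their neighbour in this order. *Tgfb2* was the lowest of the TGFβ isoforms.

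In control + A83-01 *Tgfb2* came second, at 2385 ± 594 per kb (SD, n = 4), below *Gdf15* at 5097 ± 1483 and above *Tgfb3* at 685 ± 155. In *Smad2/3* cKO it came first, at 4077 ± 1522, and overlapped *Gdf15* at 3386 ± 399. In *Smad2/3* cKO + A83-01 it was at 5089 ± 1543, again overlapping *Gdf15* at 4067 ± 981. In all 3 groups *Tgfb3*, *Inhbb* and *Tgfb1* followed in that order without overlap between neighbours, and *Gdf11*, *Inhba* and *Inha* came last. *Tgfb2* thus made up 0.734% to 1.46% of the summed per-length level of the 8 ligands in control + vehicle. Its share was 16.6% to 37.95% with A83-01 and 30.7% to 55.3% with the deletion, and reached 36.8% to 58.05% with both. The sum itself was 3097 ± 430.4 per kb in control + vehicle, 8623 ± 865 in control + A83-01, 8920 ± 1431 in *Smad2/3* cKO and 10762 ± 1298 in *Smad2/3* cKO + A83-01.

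**Figure D3:**
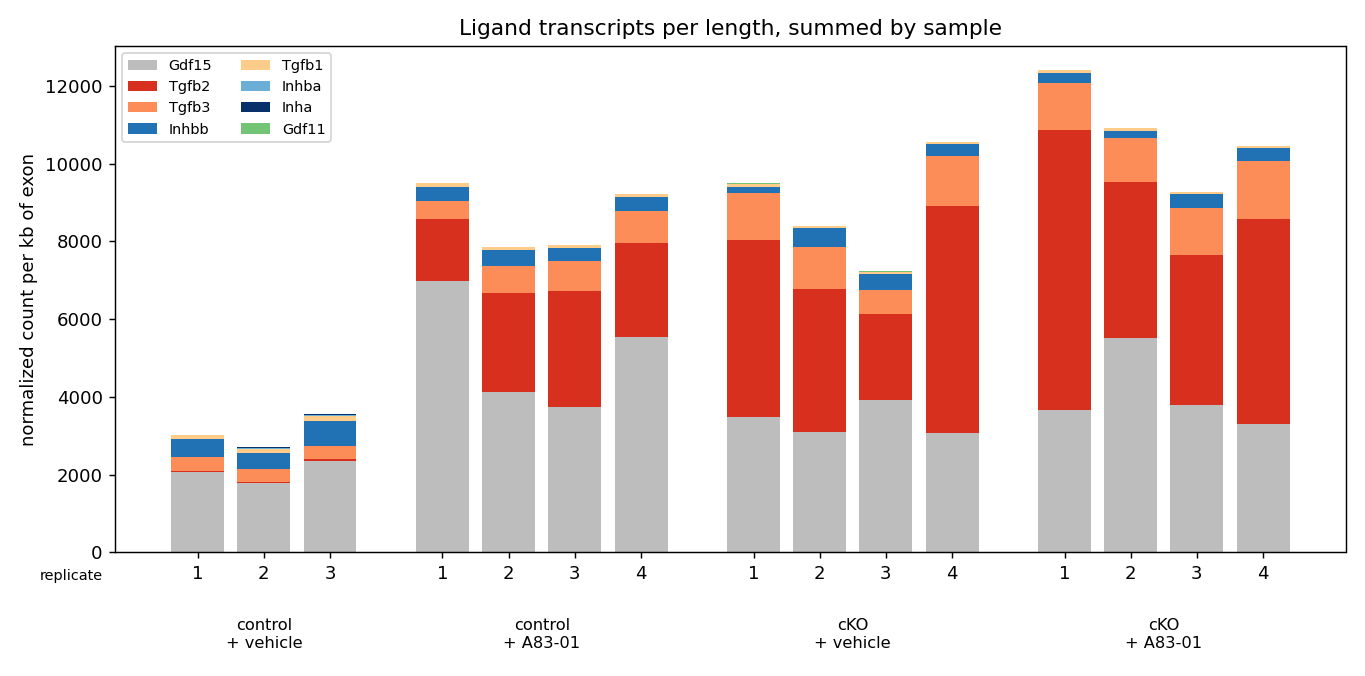
Stacked bars give the normalized count per kb of exon of the 8 ligands in each sample (vertical axis), by group and replicate number (horizontal axis). The red segment, *Tgfb2*, makes up at most 1.46% of a control + vehicle bar and at least 16.6% of every other bar.

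Genes of the pathway around the ligands were listed by role. Of 19 genes for the latency and activation of TGFβ, 16 were tested with A83-01 in controls and none passed in limma, with an unadjusted p below 0.05 for 8 of them, as for 22.2% of all genes tested. With the deletion 2 of 16 fell, where 3.3% of all genes fell. These were *Thbs1*, whose product thrombospondin 1 can activate latent TGFβ (log2 −1.36, adjusted p = 0.0027), and *Mmp14*, which encodes a membrane protease (log2 −1.69, adjusted p = 0.00814). Without *Smad2/3* cKO replicate 2 only *Thbs1* passed, since *Mmp14* was at −1.48 (adjusted p = 0.015). The list's median log2 fold change was −0.61 with A83-01 and −0.83 in *Smad2/3* cKO (−0.89 without replicate 2), where that of all genes tested was −0.02 and 0.

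Among binding proteins and co-receptors, 4 of 12 genes were tested and 1 fell in both comparisons. Of all genes tested 1.08% fell with A83-01 and 3.3% in *Smad2/3* cKO. The gene that fell was *Fst*, which encodes follistatin. It fell from 247 to 1183 normalized counts in control + vehicle to 0 to 17.5 in control + A83-01 (log2 −6.36, SE 0.98, adjusted p = 0.00671) and to 11 to 48.7 in *Smad2/3* cKO (log2 −4.47, SE 0.63, adjusted p = 0.00239). Neither group overlapped control + vehicle, and the call held without *Smad2/3* cKO replicate 2 (log2 −4.52, adjusted p = 0.00602). The median of the 4 was −1.39 with A83-01 and −1.28 in *Smad2/3* cKO (−1.13 without that replicate). It lay between genes that went opposite ways. In the same order *Bgn* was at −3.07 and −3.37, *Fstl3* at 0.72 and 0.81, and *Wfikkn1* at 0.28 and 1.14. None of these passed. *Fstl3*, at 362 to 604 normalized counts in *Smad2/3* cKO, did not overlap control + vehicle at 239 to 344 (limma adjusted p = 0.0393, and 0.0821 without that replicate).

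Of 8 receptor genes 6 were tested. None passed with A83-01 in limma (3 had an unadjusted p below 0.05, as did 22.2% of all genes tested). With the replicate block 1 of 6 passed there as higher, where 3.07% of all genes tested passed in either direction. This was *Ret*, the co-receptor of GFRAL (log2 1.89, adjusted p = 0.0078, against 1.71 and 0.0325 without the block). Without the block 1 of 6 fell in *Smad2/3* cKO, where 3.3% of all genes tested fell. It was the type 2 TGFβ receptor *Tgfbr2* (log2 −1.14, adjusted p = 0.00528), with −0.79 and an adjusted p of 0.0553 for A83-01. This call was lost without *Smad2/3* cKO replicate 2 (log2 −1.11, adjusted p = 0.0139). The median of the 6 was −0.63 with A83-01 and −0.24 in *Smad2/3* cKO (−0.36 without that replicate). *Gdf15*'s receptor *Gfral* was not among the genes tested. Of 9 other secreted members of the family that were listed, 3 had a row in the table (*Nodal*, *Lefty1* and *Gdf9*). None of them reached the minimum for a test.

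Of 14 known TGFβ target genes, 4 of 11 tested fell with A83-01 and 4 of 12 tested fell in *Smad2/3* cKO, and none rose. Of all genes tested 1.08% and 3.3% fell. The same 4 fell with A83-01 under the replicate block, and the same 4 in *Smad2/3* cKO without replicate 2. The median of the 11 tested was −2.72 with A83-01, and that of the 12 tested was −1.18 in *Smad2/3* cKO (−1.26 without that replicate). *Tgfbi*, which encodes a matrix protein, was higher in *Smad2/3* cKO but missed the threshold, at 20.6 to 66.5 normalized counts against 0.944 to 8.70 in control + vehicle (log2 3.41, adjusted p = 0.0136, and 3.24 with 0.0377 without replicate 2). *Fn1*, which encodes fibronectin, fell from 3779 ± 1870 to 9.81 ± 6.39 with A83-01 (log2 −8.49, adjusted p = 0.000106) and to 9.91 ± 10.1 in *Smad2/3* cKO (log2 −9.06, adjusted p = 0.000495). *Pmepa1*, a feedback inhibitor, fell with log2 fold changes of −4.44 and −4.29, and *Ccn2*, a matricellular gene, with −2.72 and −2.94. *Smad7*, the inhibitory SMAD, passed with A83-01 (log2 −3.79, adjusted p = 0.00132), and *Tgif1*, a SMAD corepressor, in *Smad2/3* cKO (log2 −1.18, adjusted p = 0.000725). In the difference of the A83-01 effects between genotypes *Fn1* was the only gene of these lists to pass (log2 9.61, adjusted p = 0.000298). These falls were in the same comparisons in which *Tgfb2* rose.

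Of 10 stress-response genes known to move with *Gdf15*, all were tested and none passed in any comparison in limma, with an unadjusted p below 0.05 for 1 with A83-01 and 1 in *Smad2/3* cKO, against 22.2% and 33.7% of all genes tested. Their median log2 fold change was 0.23 with A83-01 and −0.15 in *Smad2/3* cKO (−0.18 without replicate 2). The gene with an unadjusted p below 0.05 was *Atf3* both times, and it missed the threshold. Its log2 fold change was 1.57 with A83-01 (limma adjusted p = 0.0219). With the deletion it was 1.17 (0.0205), or 1.26 without replicate 2 (0.0291). *Atf3* was at 73.3 to 128 normalized counts in control + vehicle and at 233 to 421 in control + A83-01. The deletion samples held 199 to 284, or 358 to 485 with A83-01 added, so no group overlapped control + vehicle. No gene of any of these lists passed when A83-01 was added to *Smad2/3* cKO organoids, or between *Smad2/3* cKO + A83-01 and control + A83-01. Of the TGFβ target genes, however, 5 of 11 tested had an unadjusted p below 0.05 in limma in each. Of all genes tested 4.26% and 9.52% did. The median log2 fold change of the target genes was −0.2 and −0.64. *Pmepa1* was at −2.95 (adjusted p = 0.994) and −2.79 (0.123), and *Tgfbi* at 0.42 (0.994) and 2.96 (0.353).

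**Figure D4:**
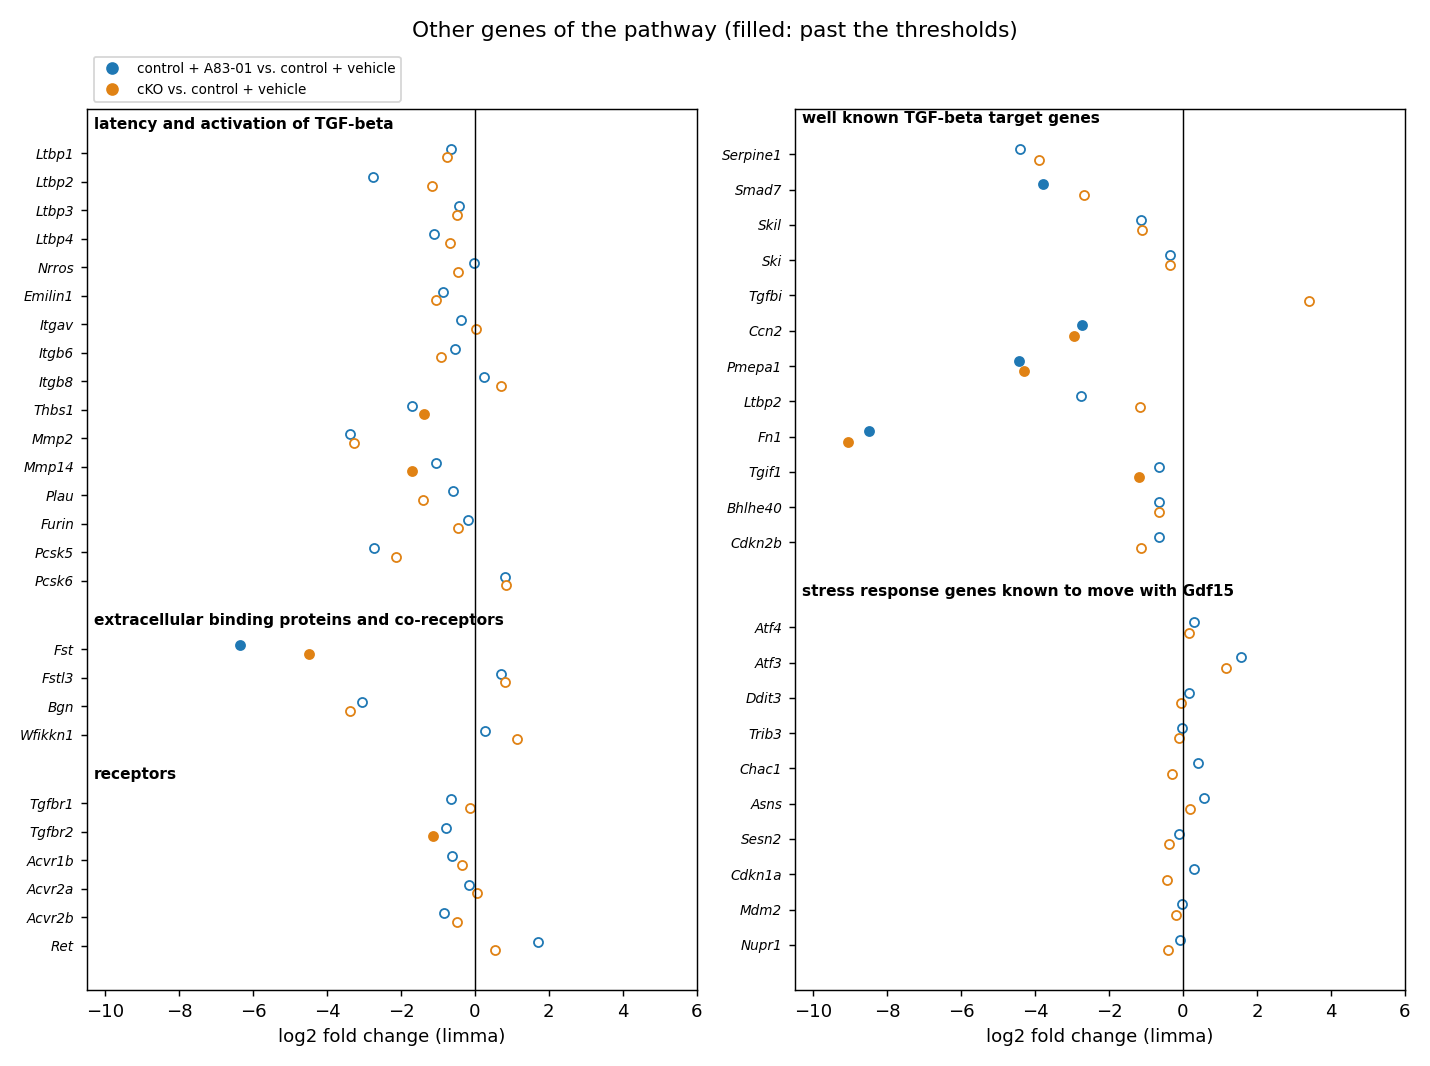
Points give the log2 fold change (horizontal axis) against control + vehicle of each listed gene that was tested, for control + A83-01 (blue) and *Smad2/3* cKO (cKO, orange), grouped by list. Filled points passed the thresholds. *Fst*, *Ccn2*, *Pmepa1* and *Fn1* passed as lower in both, and no stress-response gene passed.

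The genes most like each ligand over the 15 samples were found by Pearson's r of log2(normalized count + 1) among genes with a mean of at least 50. For *Tgfb2* they were *Tshr*, the thyrotropin receptor (r = 0.989), *Hsd11b1*, which regenerates active glucocorticoid (0.988), and *Otub2* (0.985). For *Tgfb3* they were *Sv2b*, *Mboat2* and *Sgk1* (0.962 to 0.956), and for *Gdf15* *Tnfrsf18*, *Mrpl42* and *Hspa1a* (0.953 to 0.922). *Tgfb1* was closest to *Nfkbid*, *Ikbke* and *Trp53* (0.946 to 0.917), *Inhba* to *Sgpl1*, *Rhobtb3* and *Slc12a7* (0.903 to 0.881), and *Inhbb* to *Tspan1*, *Tmem212* and *Ablim3* (0.892 to 0.873). These values are a description, since the 15 samples share groups and scaling.

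Some reads may belong to other genes. In the GRCm38 annotation *Tgfb2* shares exonic bases with *Gm29491*, and *Tgfb3* with *Gm37804* and *Gm48008*, none of which has a row in the table. Of the 31-base words in each gene's transcripts, 1.31% for *Tgfb2*, 9.96% for *Tgfb3*, 2.34% for *Tgfb1* and 0.713% for *Inhba* also occur in another gene. Whether the quantification used strand is not given in the sources used here, so reads of these partners cannot be told apart from those of *Tgfb2* and *Tgfb3*.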

How the data were processed

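RNA was measured in organoids of 4 groups, taken from the sample labels. The authors made libraries with an ultra-low input kit, quantified paired reads with Salmon 1.4.0 on GRCm39 and normalized with DESeq2 1.32.0. The values the authors deposited, a signal per gene, are normalized counts, that is, estimated counts divided by 1 size factor per sample. Only 5.1% to 12.7% of values below 12 were whole multiples of the smallest step (tolerance 0.01 of a step). Whole reads could thus not be recovered, and no count model was used.

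Each comparison was fitted on its 2 groups with limma 3.58.1 (eBayes with trend) in R 4.3.3 on log2(normalized count + 1), for genes whose mean was 10 or more, with Benjamini-Hochberg adjustment over all genes tested and the study's cut-offs. The difference of A83-01 effects was fitted on all 15 samples. The code was tested on simulated data. The ligands and lists were chosen with earlier results of these data known. The genes named are all 8 ligands, listed genes that passed in at least 1 comparison and, for each ligand with a mean of at least 10, the 3 most similar genes. *Nodal*, *Lefty1*, *Gdf9*, *Ret*, *Tgfbi*, *Bgn*, *Fstl3*, *Wfikkn1*, *Atf3* and single markers were named after their values were seen.

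The labels number the replicates. In the 2 control groups, replicates 1 to 3 also share the numbers 367, 368 and 395. The deviations of same-numbered samples from their group means correlated in every pair (lowest r 0.354, mean 0.395). Other pairs had a mean r of −0.133, which the centering on group means ties to the mean of the same-numbered pairs. The numbers were taken to pair these samples. The fits reported have no block, and a blocked value stands beside a result that the block changed. The number 367 also occurs in 1 *Smad2/3* cKO sample (r 0.077 with 367 of control + vehicle, 0.094 with 367 of control + A83-01). The number 369 occurs in 1 sample of each *Smad2/3* cKO group (r 0.355 for this pair). Nothing in the labels says that samples came from separate animals. The methods state different mice per condition, but they do not list *Smad2/3* cKO + A83-01, a group known from the labels. Where samples were not from separate animals, p-values measure technical spread. Positions, lengths and sequences are those of GRCm38 (GENCODE, and RefSeq for start sites), not the GRCm39 of the authors. Counts over lists and over all genes without *Smad2/3* cKO replicate 2 or with the block were added after seeing the data. Further alternatives were other pseudocounts, filters, scaling, thresholds, covariates, all 4 groups in 1 fit, and leaving out each sample.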

Additional observations from a re-analysis of the deposited data

Results flagged for a closer look

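The effect of A83-01 on *Tgfb2* differed between the genotypes, which the test of that difference in limma called (−5.77 on the log2 scale, SE 0.44, adjusted p = 9.75e-06). The effect was 6.13 in control organoids, where all 4 A83-01 samples lay above all 3 vehicle samples, and 0.36 in *Smad2/3* cKO organoids, where the groups overlapped. Of the 6 ligands with a mean of at least 10, no sample lay far enough from the rest of its group to pass Dixon's test in the 18 groups of 4 samples tested. The control + vehicle group of 3, *Inha* and *Gdf11* were not tested in this way.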

How the results depend on the processing

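No result changed direction past the threshold, and 727 of 766 results under an alternative kept their side of it. *Tgfb2* passed in every one of the 17 alternatives in each comparison with control + vehicle (log2 5.85 to 6.32 with A83-01 and 6.58 to 7.12 in *Smad2/3* cKO), and in all 24 for the difference of A83-01 effects (−6.04 to −5.49). With A83-01 in controls 1 ligand passed, against 2.27% of all genes tested. The number was 2 at a pseudocount of 10, 2 after quantile normalization, 2 with the replicate block, 3 with all 4 groups in the fit and 4 at an adjusted p below 0.05, and ran from 1 to 2 on leaving out a replicate. In *Smad2/3* cKO against control + vehicle 2 passed, against 7.38% of all genes tested. The number was 1 without the trend in eBayes, 1 with the replicate block, 3 at a pseudocount of 10, 3 with all 4 groups in the fit and 5 at an adjusted p below 0.05, and ran from 1 to 2 on leaving out a replicate. The ligand lost was *Tgfb3* (adjusted p = 0.0161 and 0.0178), and the cause was not tested. Of all genes 3.07% passed with the block in controls, and 4.97% in *Smad2/3* cKO without its replicate 2. Under the other settings the share of all genes was not counted. The numbers of ligands there thus describe the settings and are no result about the ligands. Outside the control groups samples with the same replicate number did not deviate together in every pair (lowest r 0.015 or less), so the block is no pairing there. It changed no other call of a ligand. Below the threshold the sign of *Inhbb* changed under some alternatives (−0.55 to 0.05 for A83-01 in *Smad2/3* cKO). The values of *Inha*, *Gdf11* and, outside control + vehicle, *Inhba* were low, which limits what their differences can show.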
